A study of Mus musculus with 19 samples.

Results

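Slc12a2, Slc12a5 and Slc12a7, which encode cation-chloride cotransporters, and Atp1b1 and Atp1b2, which encode beta subunits of the sodium-potassium pump, were followed in brain slices of mice without Fmr1. They are given by symbol, and all 5 were present among the 14459 genes of the deposited tables. Fmr1 encodes FMRP, an RNA-binding protein whose loss causes fragile X syndrome. Fmr1 KO mice and their WT littermates were male, on the C57BL/6 background and 28 to 35 days old, and both genotypes were handled alike. Each replicate pooled 8 to 10 acute slices, 400 µm thick, from 6 to 8 mice. The slices rested for 3 to 4 h at 30 °C before 100 µg/ml cycloheximide, which stalls ribosomes, was added. The source name calls the slices hippocampal-cortical, and the protocol describes cutting away CA3 to enrich CA1, so several cell types were present in every pool.

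From each lysate, cytoplasmic RNA was sequenced, and mRNA fragments protected by ribosomes (ribosome footprints) were sequenced in parallel. The tables held 3 KO and 4 WT libraries for each assay, so n is 3 KO and 4 WT throughout, and 5 of the 19 listed samples are not analysed here. Library totals were 15.57 to 22.71 M estimated counts for footprints and 4.966 to 9.964 M for RNA. Levels are given in TPM, which is scaled for gene length. The lowest values in a library lay between 0.88 and 1 TPM in either assay, a floor below which the deposited values do not reach. Fmr1 itself averaged 4.81 ± 0.222 TPM of footprints in KO slices and 44.4 ± 1.53 TPM in WT slices (SD), and 4.42 ± 0.771 TPM of RNA in KO slices and 17.3 ± 1.46 TPM in WT slices. That difference runs the way the labels give it (log2 fold change -3.21 in footprints, edgeR adjusted p = 9.12e-12).

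Chloride enters neurons through NKCC1, the product of Slc12a2, which takes up sodium, potassium and chloride together. It leaves through potassium-chloride cotransporters, of which KCC2, the product of Slc12a5, is the neuronal form, and KCC4, the product of Slc12a7, is found mostly outside the brain. The balance of import and export sets the chloride gradient that GABA-A and glycine receptors use, and it shifts towards export as neurons mature. The sodium-potassium pump spends ATP to keep up the sodium and potassium gradients that drive both kinds of cotransporter. Each pump pairs a catalytic alpha subunit with a glycosylated beta subunit, which brings the alpha subunit to the membrane and tunes its affinity for the ions. The beta-1 subunit, encoded by Atp1b1, is abundant in neurons, and the beta-2 subunit, encoded by Atp1b2, is best known from astrocytes, where it was also described as an adhesion molecule.

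The 5 genes covered a wide range of levels, and their order was the same in both assays and both genotypes. Atp1b1 stood highest, followed by Atp1b2, Slc12a5, Slc12a2 and Slc12a7. The library ranges of neighbours in this order did not overlap in any of the 4 groups. Atp1b1 ranked 20 from the top of all genes by mean footprint TPM in KO slices and 19 in WT slices. By RNA it ranked 95 in KO slices and 85 in WT slices. Slc12a7, at the other end, ranked 12420 by footprint TPM in KO slices and 12227 in WT slices, close to the floor. It had 32.8 to 71.5 counts in an RNA library, whereas the other members had at least 835 counts in every library. The gene lengths implied by count over TPM separate the families too: Slc12a2, Slc12a5 and Slc12a7 measured 2.64, 2.44 and 2.37 times the median gene, and Atp1b1 and Atp1b2 measured 0.635 and 0.604 times it.

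**Figure D1:**
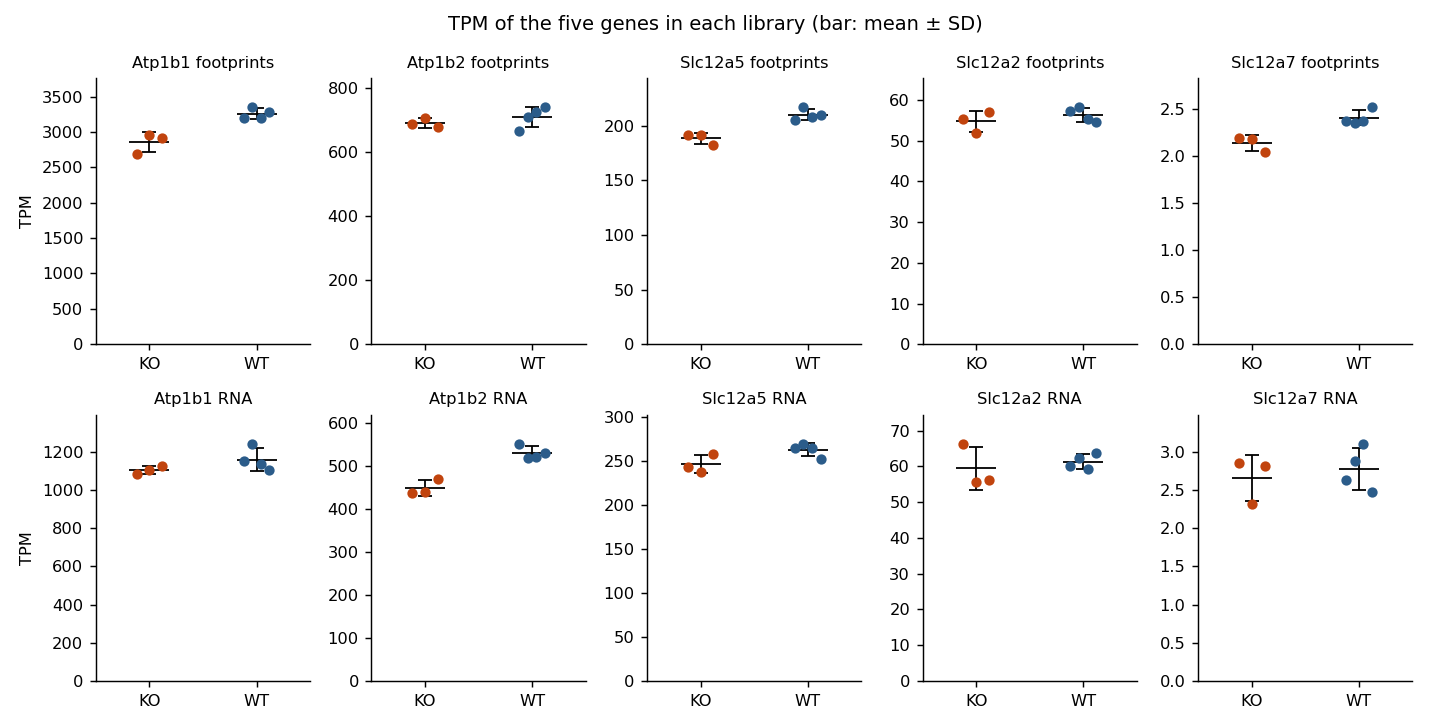
Level of each gene in every library, in TPM, for footprints and for RNA, with KO libraries (n = 3) left of WT libraries (n = 4). Each gene and assay has a separate linear axis, and mean and SD are marked. The genes are set out from the highest level to the lowest, in the order Atp1b1, Atp1b2, Slc12a5, Slc12a2, Slc12a7.

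Of the 5 genes, 2 fell in KO footprints and none rose, with 3 that did not pass the test, where 18.5% of the 14438 genes tested passed it (10.4% lower and 8.15% higher in KO slices). The genes that fell were Slc12a5, the neuronal chloride exporter, and Atp1b1, the abundant pump subunit. In RNA 1 gene fell and none rose, and that gene was Atp1b2. Of 13877 genes tested in RNA 4.89% passed (2.77% lower and 2.11% higher in KO slices). The members' median log2 fold change was -0.16 in footprints and -0.07 in RNA, while the median over all genes tested lay within 0.01 of 0 in both assays. A gene was called when its adjusted p in edgeR, taken over all genes of the assay, was under 0.05. In bulk slices, fewer cells of a type and less RNA per cell cannot be told apart. With 5 genes, these counts are too small to be set apart from the shares over all genes. For 3 of the 5 genes every KO footprint library was below every WT one, and for none was every KO library above, where 15.6% of all genes were separated in the first direction and 15.1% in the other. In RNA 1 of the 5 was separated, with KO slices lower, beside 10.3% of all genes in that direction and 9.19% in the other.

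**Figure D2:**
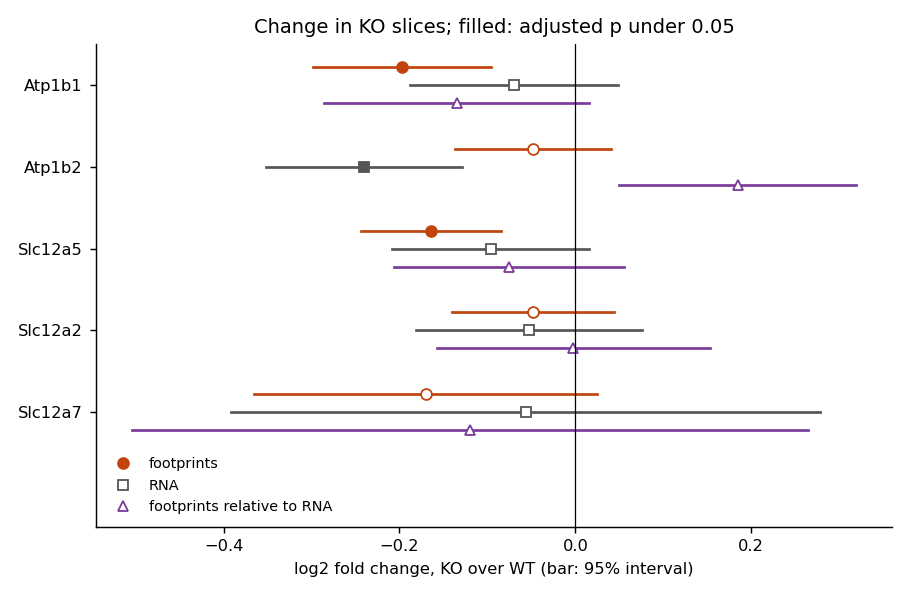
Log2 fold change of each gene, KO over WT, with its 95% interval, for footprints, RNA and footprints relative to RNA, where filled symbols have an edgeR adjusted p under 0.05. Slc12a5 and Atp1b1 are filled in footprints (-0.16 and -0.20), Atp1b2 is filled in RNA (-0.24), and no gene is filled for footprints relative to RNA.

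Slc12a2 encodes the chloride importer. Its footprints measured 55.4, 52.0 and 57.0 TPM in the KO libraries, against 57.2, 58.3, 55.4 and 54.5 TPM in the WT libraries. The ranges of the genotypes overlapped, with KO replicate 2 below every WT library. The log2 fold change was -0.05 ± 0.042 (SE; 95% interval -0.14 to 0.04; edgeR adjusted p = 0.515). Its RNA measured 66.4, 55.7 and 56.2 TPM in KO slices, against 60.0, 62.3, 59.3 and 63.7 TPM in WT slices. KO replicate 1 was the highest of all libraries and the other KO libraries were the lowest, so the KO group spanned the WT group. The RNA log2 fold change was -0.05 ± 0.061 (95% interval -0.18 to 0.08; edgeR adjusted p = 0.696).

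Slc12a5 encodes the neuronal exporter, and its footprints were fewer in KO slices. Footprints measured 191.2, 191.9 and 182.5 TPM in the KO libraries, against 204.9, 217.2, 208.3 and 210.0 TPM in the WT libraries. All 3 KO libraries lay below all 4 WT libraries. The group means were 188.5 ± 5.26 TPM in KO slices and 210.1 ± 5.19 TPM in WT slices. The edgeR fit gave a change of -10.8% (log2 fold change -0.16 ± 0.036, 95% interval -0.24 to -0.08, edgeR adjusted p = 0.00969). The call held on leaving out each library in turn, with adjusted p between 0.0152 and 0.0449.

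The RNA of Slc12a5 measured 242.6, 237.7 and 257.2 TPM in KO slices, against 264.4, 269.4, 264.6 and 251.6 TPM in WT slices. KO replicate 3 lay above WT replicate 4, and the other libraries were separated by genotype. The RNA log2 fold change was -0.10 ± 0.053 and did not pass the test (95% interval -0.21 to 0.02, edgeR adjusted p = 0.330). Its interval includes the change seen in footprints as well as 0. Slc12a5 footprints were 3.45 ± 0.245 times those of Slc12a2 in KO slices and 3.73 ± 0.112 times in WT slices, by TPM, and the library ranges overlapped (3.2 to 3.69 in KO slices and 3.58 to 3.85 in WT slices). By RNA the same ratio of Slc12a5 to Slc12a2 was 4.17 ± 0.468 in KO slices and 4.28 ± 0.229 in WT slices, again with overlap. These ratios describe bulk slices with several cell types, not the balance within neurons, and were not tested.

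Slc12a7 encodes KCC4, a further potassium-chloride exporter. Its footprints measured 2.20, 2.19 and 2.04 TPM in KO slices, against 2.38, 2.36, 2.38 and 2.53 TPM in WT slices. The KO libraries were all lower than the WT libraries, at a level little above the floor. The log2 fold change was -0.17 ± 0.089 and did not pass the test (95% interval -0.36 to 0.02, edgeR adjusted p = 0.224). Its RNA measured 2.85, 2.32 and 2.81 TPM in KO slices, against 2.64, 2.89, 3.11 and 2.48 TPM in WT slices, with the groups interleaved. The RNA interval ran from -0.39 to 0.28 (log2 fold change -0.06, edgeR adjusted p = 0.900), the widest among the 5 genes. Without KO replicate 2 or without WT replicate 3 the RNA difference was 0.03 on the log2 scale, so its direction rests on single libraries.

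Atp1b1 encodes the beta-1 subunit of the pump, and its footprints too were fewer in KO slices. Footprints measured 2692, 2963 and 2912 TPM in the KO libraries, against 3195, 3353, 3190 and 3288 TPM in the WT libraries. All KO libraries lay below all WT libraries, and KO replicate 1 was the lowest. The group means were 2856 ± 144 TPM in KO slices and 3257 ± 78.3 TPM in WT slices. The edgeR fit gave a change of -12.8% (log2 fold change -0.20 ± 0.046, 95% interval -0.30 to -0.10, edgeR adjusted p = 0.0129). The call held on leaving out each library in turn, with adjusted p up to 0.0389. At this level each library had at least 39700 footprint counts for the gene, so counting error is small beside the spread between pools.

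The RNA of Atp1b1 measured 1086, 1104 and 1126 TPM in KO slices, against 1152, 1244, 1137 and 1104 TPM in WT slices. The WT libraries reached higher, and WT replicate 4 lay at the level of KO replicate 2. The RNA log2 fold change was -0.07 ± 0.056 (95% interval -0.19 to 0.05, edgeR adjusted p = 0.538).

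Atp1b2 encodes the beta-2 subunit and passed the test in RNA and not in footprints. Its footprints measured 685.5, 706.3 and 676.7 TPM in KO slices, against 665.2, 706.9, 723.4 and 739.9 TPM in WT slices. WT replicate 1 was the lowest library of all, and the groups overlapped. The footprint log2 fold change was -0.05 ± 0.041 and did not pass the test (95% interval -0.14 to 0.04, edgeR adjusted p = 0.494).

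The RNA of Atp1b2 measured 435.4, 439.2 and 469.9 TPM in KO slices, against 551.0, 518.1, 519.1 and 530.1 TPM in WT slices. The KO libraries all lay below the WT libraries, and the gap between the groups exceeded the range within either. The means were 448.1 ± 18.9 TPM in KO slices and 529.6 ± 15.3 TPM in WT slices. The edgeR fit gave a change of -15.3% (log2 fold change -0.24 ± 0.053, 95% interval -0.35 to -0.13, edgeR adjusted p = 0.0194). The call was lost without KO replicate 1 (adjusted p = 0.0658), without KO replicate 2 (0.0654), without WT replicate 1 (0.0599) and without WT replicate 4 (0.0530), where the log2 fold change was -0.21, -0.23, -0.22 and -0.24. The direction was the same in each of those fits.

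Footprint TPM over RNA TPM in libraries of the same genotype and number gives a ratio of footprints to RNA. The length used for TPM cancels in it, but whether the ratio varies with gene length was not tested. The median gene had a ratio of 0.787 in KO slices and 0.785 in WT slices. The pump subunits carried many footprints for their RNA: Atp1b1 stood above 95.2% of genes in KO slices and 95.7% in WT slices, and Atp1b2 above 85.1% in KO slices and 80.1% in WT slices. The cotransporters were near the middle, with Slc12a5 above 48.5% of genes in KO slices and 51.3% in WT slices, and Slc12a2 above 61.7% in KO slices and 60.9% in WT slices.

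Whether this ratio differed between genotypes was tested with an assay-by-genotype term in 1 fit of the 14 libraries, and none of the 5 genes passed (1 had an unadjusted edgeR p under 0.05, and none was called by DESeq2 or limma). The test called few genes in all, 0.0346% of 14435 (0.0208% lower and 0.0139% higher in KO slices), although 1564 genes had an unadjusted p under 0.05. Atp1b1 had ratios of 2.48, 2.68 and 2.59 in KO slices, against 2.78, 2.70, 2.81 and 2.98 in WT slices. All KO ratios lay below all WT ratios, as for 7.01% of all genes. The log2 difference was -0.13 ± 0.073 (95% interval -0.29 to 0.02, edgeR adjusted p = 0.519).

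Atp1b2 moved the other way and had ratios of 1.58, 1.61 and 1.44 in KO slices, against 1.21, 1.36, 1.39 and 1.40 in WT slices. All KO ratios lay above all WT ratios, as for 6.59% of all genes, although WT replicate 1 stood well below the other WT ratios. The log2 difference was 0.18 ± 0.065 (95% interval 0.05 to 0.32), with an unadjusted p of 0.00948 in edgeR that became 0.258 after adjustment over all genes. The adjusted p stayed between 0.135 and 0.546 over the 16 alternatives tried.

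The chloride cotransporters had overlapping ratios in KO and WT slices. Slc12a5 averaged 0.769 ± 0.0518 in KO slices and 0.801 ± 0.0260 in WT slices (log2 difference -0.08, 95% interval -0.21 to 0.05, edgeR adjusted p = 0.747). Slc12a2 averaged 0.928 ± 0.0907 in KO slices and 0.919 ± 0.0436 in WT slices, and its log2 difference had an interval of -0.16 to 0.15. Slc12a7 averaged 0.814 ± 0.115 in KO slices and 0.876 ± 0.112 in WT slices (95% interval -0.50 to 0.26). All 3 intervals include 0.

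**Figure D3:**
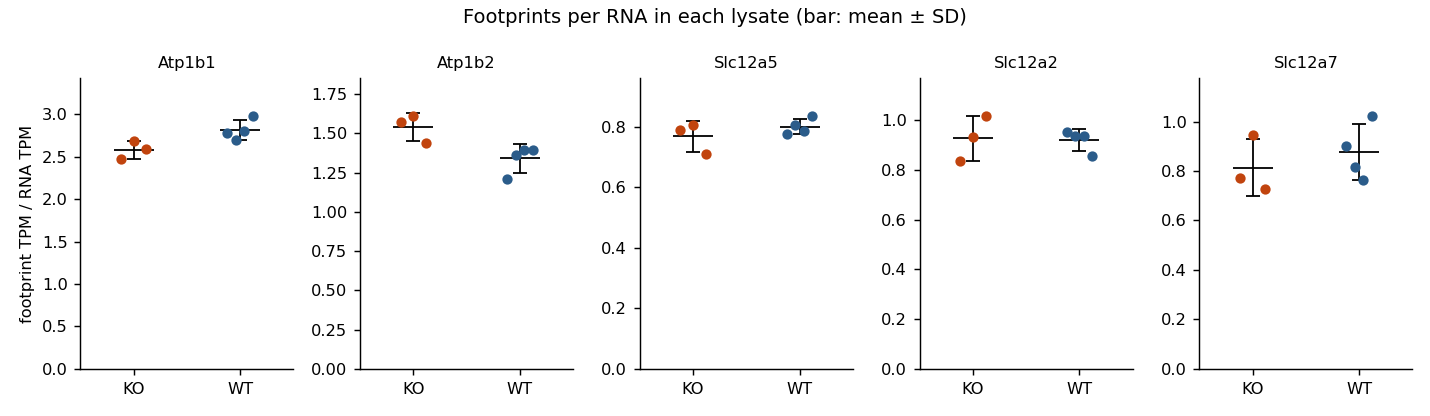
Footprint TPM over RNA TPM for libraries of the same genotype and number, with mean and SD, on a separate axis for each gene that starts at 0, KO (n = 3) left of WT (n = 4). The KO ratios lie below the WT ratios for Atp1b1 (2.48 to 2.68 and 2.70 to 2.98) and above them for Atp1b2 (1.44 to 1.61 and 1.21 to 1.40), and the groups overlap for Slc12a5, Slc12a2 and Slc12a7.

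The beta genes (Atp1b1, Atp1b2 and Atp1b3) were next described together by their summed TPM, as values with no test. Beta footprints summed to 3685 ± 150 TPM in KO slices and 4123 ± 97.5 TPM in WT slices. Beta RNA summed to 1647 ± 35.7 TPM in KO slices and 1794 ± 58.0 TPM in WT slices. In both sums the KO libraries lay below the WT libraries without overlap. Of single genes, 15.6% were separated in that direction in footprints and 10.3% in RNA. Atp1b1, already described, made up most of each sum, with means of 2856 TPM of footprints and 1106 TPM of RNA in KO slices.

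The mix within the beta genes is likewise given with no test. Atp1b1 over Atp1b2 was 4.14 ± 0.190 in KO slices and 4.598 ± 0.201 in WT slices by footprint TPM, with all KO libraries (3.93 to 4.3) below all WT libraries (4.41 to 4.8). By RNA the ratio was 2.47 ± 0.0608 in KO slices and 2.19 ± 0.149 in WT slices, with a range of 2.4 to 2.51 in KO slices and 2.08 to 2.4 in WT slices. The footprint ranges were apart, with KO slices lower, and the RNA ranges met at their edge, with the higher mean in KO slices.

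Besides Atp1b1 and Atp1b2, the beta-3 subunit gene Atp1b3 was measured. With it, 2 of 3 beta subunits fell in KO footprints and none rose, with a median log2 fold change of -0.17. Over all genes 10.4% were called lower in footprints. Of the 2, Atp1b1 is a member already described, so Atp1b3 is the only call added here. In RNA 1 of the 3 fell, which was the member Atp1b2, where 2.77% of all genes were called lower. Atp1b3 footprints averaged 140.1 ± 1.90 TPM in KO slices and 157.0 ± 6.24 TPM in WT slices (log2 fold change -0.17 ± 0.038, edgeR adjusted p = 0.00880). Its RNA averaged 93.1 ± 5.33 TPM in KO slices and 105.2 ± 1.91 TPM in WT slices, without passing the test (edgeR adjusted p = 0.111). Atp1b4 is not analysed here.

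Among 6 genes of the SLC12 family described here, 2 fell in KO footprints and none rose, with a median log2 fold change of -0.10. Over all genes 10.4% were called lower. The 2 were Slc12a5, a member already described, and Slc12a9. In RNA none of the 6 was called by edgeR, DESeq2 or limma, and 1 had an unadjusted edgeR p under 0.05. Slc12a9, whose product is less well understood, had 14.0 ± 0.354 TPM of footprints in KO slices and 15.4 ± 0.559 TPM in WT slices (log2 fold change -0.15 ± 0.042, edgeR adjusted p = 0.0308). That call was lost without KO replicate 1 or 3 or WT replicate 2, 3 or 4, with adjusted p of 0.0593 to 0.104, and with DESeq2 (0.0943), limma (0.0675 and 0.0678), a length trend removed (0.0507) or the covariate for replicates 1 and 2 (0.0717).

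Slc12a4, the widely expressed exporter KCC1, had 8.72 ± 0.356 TPM of footprints in KO slices and 8.64 ± 0.346 TPM in WT slices (edgeR adjusted p = 0.970). Slc12a8 lay near the floor, at 1.57 ± 0.0499 TPM in KO slices and 1.58 ± 0.0355 TPM in WT slices. Of these 6 genes Slc12a5 and Slc12a2 had the highest footprint means, and Slc12a1 and Slc12a3 are not analysed here.

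**Figure D4:**
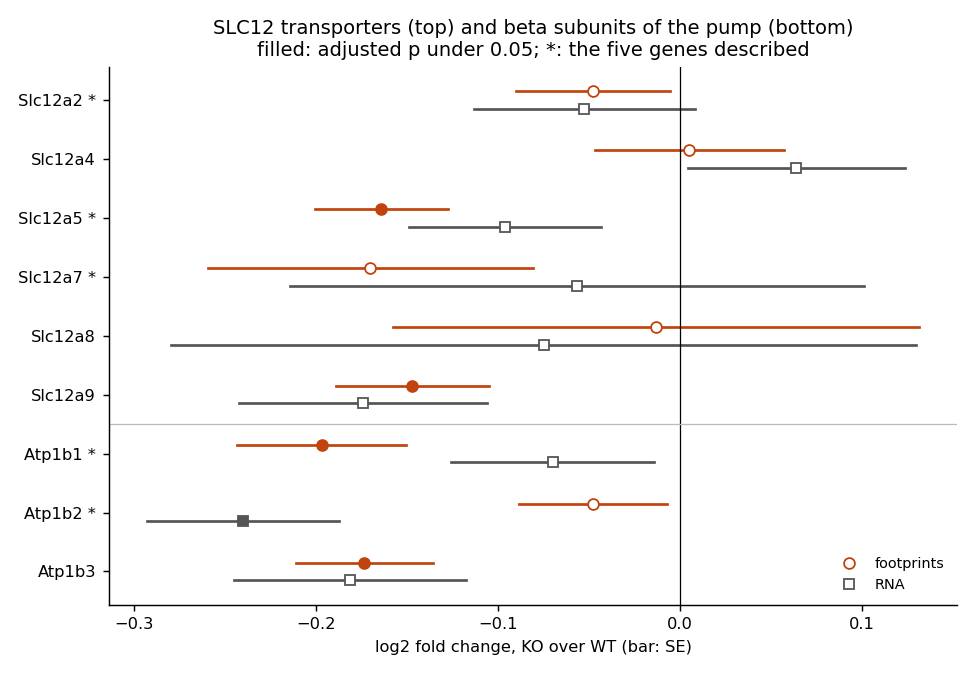
Log2 fold change, KO over WT, of 6 SLC12 genes and 3 beta subunits of the pump, in footprints and in RNA, with bars for the SE and filled symbols for an edgeR adjusted p under 0.05. Called footprint changes are all below 0 (Slc12a5, Slc12a9, Atp1b1 and Atp1b3), and the called RNA change is that of Atp1b2.

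The transporters' partners were taken from lists of pump regulators, cotransporter kinases, chloride channels and exchangers, sodium transporters and other P-type pumps, together with the SLC12 genes and beta subunits. Of 68 such genes tested in footprints, 18 fell and 2 rose in KO slices (median log2 fold change -0.08), where 10.4% of all genes were called lower and 8.15% higher. In RNA 3 of 67 fell and 2 rose (median -0.03), where 2.77% of all genes were called lower and 2.11% higher. Both counts include the 5 members, of which 2 fell in footprints and 1 fell in RNA. Members and lists were chosen with earlier results of these data known. The single lists below hold few genes each, and their counts were not tested against these shares. For footprints relative to RNA no gene of the 68 was called by edgeR, 14 had an unadjusted p under 0.05, and DESeq2 called 1. Without KO replicate 3 the footprint calls numbered 12 in place of 20, and without KO replicate 2 or WT replicate 4 the RNA calls numbered 1 in place of 5.

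Fxyd1 encodes phospholemman, a small membrane protein that binds the pump and lowers its activity. It had 133.9 ± 8.81 TPM of footprints in KO slices and 162.4 ± 1.10 TPM in WT slices (log2 fold change -0.29 ± 0.050, edgeR adjusted p = 0.00340). Its RNA averaged 51.1 ± 3.55 TPM in KO slices and 72.6 ± 2.88 TPM in WT slices (log2 fold change -0.51 ± 0.097, edgeR adjusted p = 0.0111), and without KO replicate 2 the adjusted p was 0.0555. Of the 9 measured FXYD and NKAIN genes, 3 fell in footprints and none rose. In RNA 2 of the 8 tested fell and none rose, where 2.77% of all genes were called lower. Fxyd6 fell by 0.17 (edgeR adjusted p = 0.0222), lost without KO replicate 1 or 3 or WT replicate 2 or 4 (up to 0.0877). Nkain4, of a family that binds the beta-1 subunit, fell by 0.16 (edgeR adjusted p = 0.0409), lost without KO replicate 1 or 3 or WT replicate 1, 2 or 4 (up to 0.192), and its log2 fold change was -0.10 without KO replicate 1. DESeq2 gave Nkain4 0.0957, and the covariate for replicates 1 and 2 gave 0.0795. In RNA Nkain3 fell by 0.40 (edgeR adjusted p = 0.0314), lost without KO replicate 1 or 3 or any 1 WT replicate (up to 0.120) and with that covariate (0.0563).

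WNK kinases and the kinases they activate, SPAK and OSR1, phosphorylate the cotransporters, which raises the activity of NKCC1 and lowers that of the exporters. Oxsr1, which encodes OSR1, rose in KO footprints, with 15.3 ± 0.589 TPM in KO slices and 12.0 ± 0.495 TPM in WT slices (log2 fold change 0.35 ± 0.045, edgeR adjusted p = 0.000828). Wnk1 fell, with 29.5 ± 2.27 TPM in KO slices and 35.1 ± 1.21 TPM in WT slices (log2 fold change -0.26 ± 0.048, edgeR adjusted p = 0.00431). Neither passed in RNA, with edgeR adjusted p of 0.493 for Oxsr1 and 0.244 for Wnk1. Neto2, whose product binds KCC2, fell by 0.17 in footprints (edgeR adjusted p = 0.0316), lost without KO replicate 1 or 2 or WT replicate 1, 2 or 4 (up to 0.120). Of the 11 genes in this list, 1 rose and 2 fell in footprints, and none was called in RNA by edgeR, DESeq2 or limma, with 3 at an unadjusted edgeR p under 0.05.

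Of 21 chloride channel and anion exchanger genes measured, 5 fell and 1 rose in footprints, and 2 rose in RNA. Ttyh2, of a family of transmembrane proteins first described as anion channels, fell by 0.26 in footprints (edgeR adjusted p = 0.00538), with 31.4 ± 0.759 TPM in KO slices and 37.4 ± 2.39 TPM in WT slices. Clns1a, whose product is linked to cell volume control and to the assembly of splicing particles, rose in footprints, with 142.5 ± 2.30 TPM in KO slices and 126.9 ± 3.48 TPM in WT slices (edgeR adjusted p = 0.00786). It also rose in RNA (log2 fold change 0.24, edgeR adjusted p = 0.0474), lost without any 1 KO replicate or WT replicate 1, 2 or 4 (up to 0.141), with DESeq2 (0.0711) and with the covariate (0.0920). Clcn5, an endosomal chloride-proton exchanger, rose in RNA, with 10.2 ± 0.597 TPM in KO slices and 7.96 ± 0.246 TPM in WT slices (edgeR adjusted p = 0.0233), lost without KO replicate 2 or 3 or WT replicate 3 or 4 (up to 0.0765), with limma (0.0541 and 0.0551) and with the covariate (0.0525). Ano2, a calcium-activated chloride channel near the floor at 1.57 ± 0.149 TPM in KO slices and 2.01 ± 0.198 TPM in WT slices, fell in footprints (edgeR adjusted p = 0.0133), lost without KO replicate 3 or WT replicate 3 (up to 0.0883).

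Of 8 sodium transporter genes, 1 fell in footprints and none rose. It was Slc8a1, which encodes a sodium-calcium exchanger, with 159.8 ± 3.64 TPM of footprints in KO slices and 180.2 ± 5.09 TPM in WT slices (log2 fold change -0.18 ± 0.039, edgeR adjusted p = 0.00877). In RNA none of the 8 was called by edgeR, DESeq2 or limma, and 2 had an unadjusted edgeR p under 0.05.

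Of 10 calcium and proton-potassium pumps, relatives of the sodium-potassium pump, 3 fell in footprints and none rose. Atp2b3, a calcium pump of the plasma membrane, fell by 0.16 (edgeR adjusted p = 0.00723), with 89.2 ± 1.05 TPM in KO slices and 99.2 ± 2.57 TPM in WT slices. Atp2b4 fell by 0.17 (edgeR adjusted p = 0.0124), lost without KO replicate 3 (0.0565). Atp2a2, the calcium pump of the endoplasmic reticulum, fell by 0.14 (edgeR adjusted p = 0.0299), lost without KO replicate 1 or 3 or WT replicate 1, 2 or 4 (up to 0.0806) and with a length trend removed (0.0751).

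Genes whose pattern was most like that of each member were named by Pearson's r over the 14 libraries, using log2 TPM centred within each assay, among 8256 genes with a mean of at least 10 TPM in each assay. These r values are descriptions, since the libraries share genotype and lysate. For Slc12a5 they were Clstn3 (0.960), Agpat4 (0.957) and Efnb3 (0.954), and for Atp1b1 they were Dkk3 (0.953), Hexa (0.937) and Chga (0.937). For Atp1b2 they were Mtss1l (0.930), Lgi4 (0.925) and Rtn4rl2 (0.923). For Slc12a2 they were Tmem57 (0.923), Pnrc2 (0.894) and Sgpp1 (0.879), and for Slc12a7 they were Slc35a2 (0.871), Wdr8 (0.848) and Elovl1 (0.843). Among the members themselves, Slc12a5 and Atp1b1 were the most alike (r = 0.833), and Slc12a2 had r of 0.0304 to 0.181 with the others.

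Markers of the cell types in a slice were summed in each library, and all 10 neuron markers and all 10 astrocyte markers were in the tables. Over all genes, 10.4% were called lower and 8.15% higher in footprints, and 2.77% lower and 2.11% higher in RNA. Neuron markers summed to 11500 to 11720 TPM of footprints in KO slices and 11590 to 11740 TPM in WT slices, and to 6067 to 6393 TPM of RNA in KO slices and 6192 to 6353 TPM in WT slices. Among them 1 of 10 rose and none fell in each assay, and the neuron marker sum overlapped between the genotypes in each. Of 8 interneuron markers, 2 fell and 1 rose in footprints, and none was called in RNA. Their footprints summed to 2302 to 2524 TPM in KO slices and 2360 to 2515 TPM in WT slices, again with overlap. Astrocyte markers summed to 5068 to 5233 TPM of RNA in KO slices and 4996 to 5197 TPM in WT slices, with overlap. Of the 10 astrocyte markers, 1 was called lower in RNA. Their footprints summed to 4761 to 4979 TPM in KO slices and 4899 to 5194 TPM in WT slices, with 3 of 10 lower and 2 higher. A few genes with high TPM made up most of the neuron and astrocyte sums, so the other markers weigh little in them.

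Several other marker lists held called genes, where 10.4% of all genes were called lower in footprints and 2.77% in RNA. The counts were not tested against these shares. Of 10 microglia markers, 9 fell in footprints and 8 in RNA, with summed RNA of 870.0 to 880.0 TPM in KO slices and 1028 to 1058 TPM in WT slices. Of 7 meningeal fibroblast markers, 6 fell in footprints, with sums of 249.1 to 258.2 TPM in KO slices and 315.0 to 351.2 TPM in WT slices. Of 6 oligodendrocyte precursor markers, 3 fell in RNA, with sums of 281.6 to 315.8 TPM in KO slices and 326.4 to 376.8 TPM in WT slices. Of 10 myelinating oligodendrocyte markers, 5 fell and 1 rose in footprints (median log2 fold change -0.14), with overlapping sums of 13350 to 13980 TPM in KO slices and 13640 to 15180 TPM in WT slices. Of 9 endothelium and pericyte markers, 2 fell in footprints (median -0.17), with overlapping sums of 186.1 to 201.4 TPM in KO slices and 194.0 to 231.9 TPM in WT slices.

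For choroid plexus and ependyma, where Slc12a2 and Atp1b1 are also made, 6 markers were measured and 5 are not analysed here. Their footprints summed to 22.9 to 31.1 TPM in KO slices and 20.7 to 22.1 TPM in WT slices, and their RNA to 34.1 to 36.2 TPM in KO slices and 33.2 to 35.9 TPM in WT slices. The footprint difference lay in Ttr, with 6.95 ± 4.32 TPM in KO slices and 1.97 ± 0.356 TPM in WT slices. Ttr RNA rose too, with 5.48 ± 0.505 TPM in KO slices and 1.91 ± 0.505 TPM in WT slices (edgeR adjusted p = 0.0210). Without Ttr the other 5 markers summed to 18.6 to 20.4 TPM of footprints in KO slices and 18.6 to 20.3 TPM in WT slices. By RNA these 5 markers summed to 28.1 to 31.2 TPM in KO slices and 31.4 to 33.5 TPM in WT slices, with all KO libraries lower. Of these 5 markers only Kl was called in footprints, and it was lower (log2 fold change -0.22, edgeR adjusted p = 0.0417). The others went both ways without passing the test. Foxj1 and Ccdc153 were higher (log2 fold change 0.23 and 0.56), and Sostdc1 and Prlr were lower (-0.07 and -0.31). The part of all these cell types in the differences of the 5 genes was not tested.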

How the data were processed

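Ribosome footprints and cytoplasmic RNA were measured in 3 Fmr1 KO and 4 WT lysates. Per the submitters' processing notes, the tools were cutadapt 1.7.1, Trimmomatic 0.32, Bowtie2 2.1.0, TopHat2 2.0.9, SAMtools 0.0.19, bedtools and RSEM 1.2.11, with build mm10. The authors deposited estimated counts and TPM per gene. Groups were taken from the labels. Whether the pools count as separate samples rests on the labels, which call them biological replicates.

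After rounding, the counts of an assay were fitted in edgeR 4.0.16 under R 4.3.3 (quasi-likelihood, filterByExpr with minimum count 10, TMM, Benjamini-Hochberg over all genes, threshold 0.05). Standard errors and 95% intervals follow from the test's p and degrees of freedom. Footprints relative to RNA were tested with an assay-by-genotype term. The fit was tested on simulated counts with at least Poisson spread. That trial does not cover the narrower spread of low counts described below. Alternatives were DESeq2 1.42.0, limma 3.58.1 on log2(TPM + 1) or log2(TPM + 0.1) of the deposited values, RLE scaling, no filter, a length trend removed, a replicate block, a covariate for replicates 1 and 2, a lysate term, and leaving out each library.

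The deposited values carry a floor near 1 TPM, and the variance over the mean of low counts was 0.158 to 0.406, below the Poisson value of 1. The source of neither is given in the sources used here. P-values may therefore be too small.

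The members and lists were chosen with earlier results of these data known. Named are Fmr1, the 5 members, other genes of their families, up to 4 called genes with the smallest p of each other list, and the 3 genes most like each member. Gene symbols follow the tables, and lengths come from count over TPM. Ttr, Kl, Foxj1, Ccdc153, Sostdc1 and Prlr were named after their values were seen. Some genes of the lists are not reported here.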

Additional observations from a re-analysis of the deposited data

Results flagged for a closer look

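Single libraries stood apart in 2 of the 15 groups of 4 WT libraries examined, by the gap to the nearest library over the group's range, where chance passes Dixon's 95% critical value in about 1 of 20 groups. In Slc12a7 footprints WT replicate 4 measured 2.53 TPM and the other WT libraries 2.36 to 2.38 TPM, a share of 0.848. Without it the log2 fold change was -0.15 (edgeR adjusted p = 0.383), against -0.17 with it. In the footprint-to-RNA ratio of Atp1b2, WT replicate 1 measured 1.21 and the other WT ratios 1.36 to 1.40, a share of 0.833. Without that lysate the log2 difference was 0.14 (edgeR adjusted p = 0.543), against 0.18 with it.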

How the results depend on the processing

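The footprint calls of Slc12a5 (log2 fold change -0.18 to -0.13) and Atp1b1 (-0.23 to -0.14) held under all 15 alternatives each. Atp1b2 RNA lost its call in 4 of the 7 fits that left out a library (-0.28 to -0.21 over all 7), which leaves 0 to 1 member called in RNA, and held it under the 8 alternatives that kept every library, though under the replicate block (-0.25) its adjusted p rounds to 0.05, the threshold itself. Replicate numbers did not pair KO with WT lysates: deviations of same-numbered libraries correlated at -0.443 to 0.00227 in footprints and -0.348 to -0.0566 in RNA. Other pairs reached 0.41 in footprints and 0.347 in RNA, with KO replicate 3 positive against WT replicates 1 and 2 and negative against 3 and 4 in both assays, a grouping that the covariate for replicates 1 and 2 does not follow. With the replicate block, calls over all genes numbered 1304 in place of 2677 in footprints, 204 in place of 678 in RNA and 0 in place of 5 for footprints relative to RNA, and pathway calls 9 in place of 20 and 2 in place of 5, and footprint calls were lost for Atp1b3 (adjusted p = 0.0574), Clns1a (0.0559), Fxyd6 (0.0603), Atp2a2 (0.0705), Ano2 (0.0823), Neto2 (0.0904), Nkain4 (0.129) and Slc12a9 (0.137), and RNA calls for Nkain3 (0.119), Clcn5 (0.125) and Clns1a (0.214). The covariate for replicates 1 and 2 gave 362 genes and 2 pathway genes in RNA. For pathway RNA, DESeq2 gave 2. For footprints relative to RNA, DESeq2 called 89 genes, limma 70 and 70, and the fit without a length trend 23, and DESeq2 called 1 pathway gene in place of 0. Leaving out a library gave 236 to 872 RNA calls, 2 to 68 calls relative to RNA, and 12 to 18, 1 to 4 and 0 to 1 pathway calls in footprints, RNA and footprints relative to RNA. The sign turned only near 0. Slc12a7 RNA ran from -0.12 to 0.033 on leaving out a library. Slc12a2 relative to RNA ran from -0.075 to 0.072 likewise, and was 0.0067 with DESeq2, 0.0070 with RLE, 0.0091 and 0.0092 with limma, 0.018 without a length trend and 0.0034 with the covariate. As TMM-scaled CPM the ratios took another scale, 1.14 in KO and 1.13 in WT slices for Slc12a2, 0.943 and 0.987 for Slc12a5, 0.999 and 1.08 for Slc12a7, 3.17 and 3.47 for Atp1b1, and 1.89 and 1.65 for Atp1b2. The cause of these changes was not tested.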
